A study of Mus musculus with 24 samples.

Results

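Native mouse liver mtDNA was compared with a synthetic, methylation-free copy of mtDNA after long bisulfite treatment. The comparison used 5 of the 24 libraries of the series, chosen by their labels: liver preparation 1 treated for 40 min (L1_40) or 60 min (L1_60), liver preparation 2 treated for 60 min (L2_60), and synthetic mtDNA treated for 40 min (S1_40) or 60 min (S1_60). The liver mtDNA came from mitochondria purified from C57BL/6J mice, whose age and sex are not given in the sources used here, and was opened with BglII before denaturation. The synthetic mtDNA was a nearly full-length PCR product of native mtDNA made with unmodified nucleotides, and only 1 preparation of it was used. All 5 DNAs were heat-denatured, converted at the same bisulfite concentration and temperature, and sequenced by post-bisulfite adaptor tagging, in which random primers are extended on the converted DNA. L1_40 was set against S1_40, and L1_60 and L2_60 were each set against S1_60, so both 60 min comparisons share 1 control. The 40 and 60 min libraries of liver preparation 1 came from the same DNA, and so did both synthetic libraries.

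Bisulfite turns cytosine into uracil, which is read as thymine, while 5-methylcytosine resists, so the fraction of reads that still show a cytosine is read as methylation. The reaction needs single-stranded DNA, and cytosines that stay protected are read in the same way as methylated ones. A template without methylation therefore measures the residual signal of the method, here called the unconversion rate, as the percent of reads with an unconverted cytosine at a site. Mammalian mtDNA is a small circle of a guanine-rich heavy (H) strand and a guanine-poor light (L) strand that encodes subunits of the respiratory chain together with rRNAs and tRNAs, and the control region holds the origin of H-strand replication and the promoters.

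The files listed 3890 L-strand and 1939 H-strand cytosines. Each library held between 942443 and 2154500 cytosine calls, S1_60 being the deepest. The L strand took the smaller part, from 19.7% of the calls in L1_40 to 25.4% in S1_60. Sites with 10 or more reads were used. These were 2297 to 2464 L-strand sites in the liver libraries against 2582 in S1_40 and 3060 in S1_60, and 1864 to 1876 H-strand sites in liver against 1888 and 1927. Median coverage over the used sites was 39.0 to 42.0 reads on the L strand in 4 libraries and 81.0 in S1_60, and 258.5 to 328.0 reads on the H strand against 634.0 in S1_60. At these medians a count of 0 allows a rate of up to 3.70% to 7.69% per L-strand site and 0.473% to 1.16% per H-strand site (3 reads, counting error only). The deposited values include reads in which almost no cytosine was converted. The study left such reads out of its later analyses, and they mapped mainly to the L strand. The L-strand rates below include those reads. The study proposes that they stem from some character of the L-strand sequence. It also names DNA structures formed after denaturation and its experimental conditions as possible sources. As another possibility it names copies of cytosine-free H-strand fragments that align to the L strand. A guanine of such a fragment would be counted as an unconverted cytosine. None of these sources was tested here.

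Over sites shared within each duration, the L strands of liver and synthetic mtDNA differed at 60 min by less than the liver preparations did from each other. The mean rate over 2145 shared L-strand sites was 33.4% in L1_60, 32.5% in L2_60 and 32.7% in S1_60. The synthetic library lay between the liver preparations, whose mean was 32.9% ± 0.645 (SD, n = 2), and liver minus synthetic was 0.197 percentage points. An exact permutation test of which of the 3 libraries was the synthetic one gave p = 1 (two-sided). This test cannot go below 1 in 3, so no comparison of means at 60 min could reach 0.05. At 40 min, over 2358 L-strand sites, the mean was 30.5% in L1_40 and 28.8% in S1_40, a difference of 1.66 points between single libraries with no replicate check. With a coverage minimum of 30 that difference was -0.126 points.

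On the H strand nearly every cytosine was converted in both DNAs. Over 1844 shared sites the mean rate was 0.646% in L1_60, 0.549% in L2_60 and 0.471% in S1_60. Both liver preparations lay above the synthetic library, by 0.175 and 0.0785 points, and the gap between the preparations was 0.0964 points (exact permutation p = 0.667, two-sided). At 40 min, over 1866 sites, L1_40 had 0.554% and S1_40 0.627%. This order turned on 22 H-strand sites that were covered at 40 min but not in all 5 libraries. They had a mean of 2.45% in L1_40 and 13.3% in S1_40, at a median of 15.0 and 18.0 reads, and 11 of them lay in mt-Rnr1, the 12S rRNA gene. Over the 1844 sites covered in all 5 libraries the 40 min means were 0.531% in L1_40 and 0.475% in S1_40. The H-strand excess of liver at these sites was thus 0.0557 points at 40 min and 0.127 points at 60 min.

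**Figure D1:**
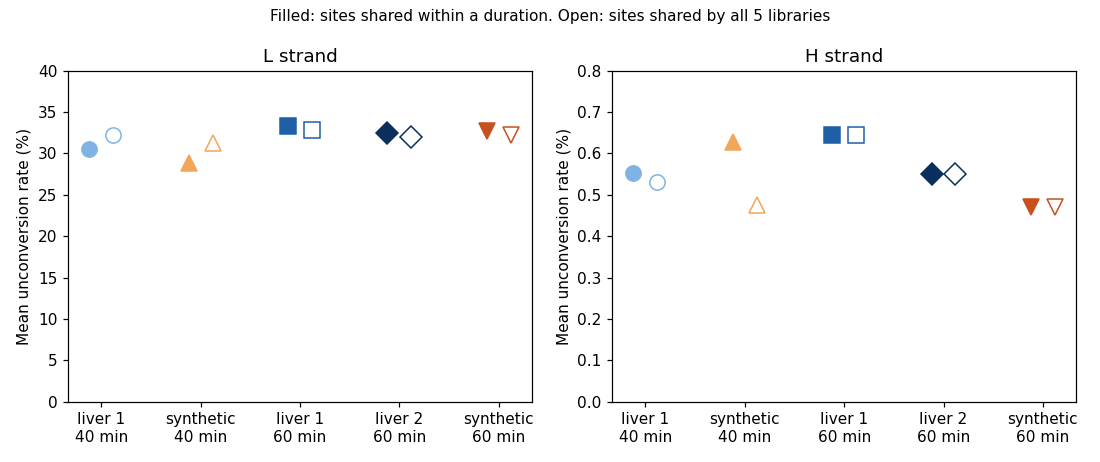
Mean unconversion rate (%) of each library on the L strand (left) and H strand (right), each point being 1 library. Filled points use the sites shared within a duration and open points those shared by all 5 libraries. The L-strand means lie between 28.8% and 33.4%, and the filled S1_40 point on the H strand (0.627%) drops to 0.475% on the sites of all 5 libraries.

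Counting every read instead of averaging sites changed the L-strand picture at 60 min. Pooled calls gave 38.3% in L1_60 and 34.0% in S1_60 over their shared sites, a difference of 4.28 points (Newcombe 95% interval 4.03 to 4.52, counting error only), and 6.30 points for L2_60 (6.05 to 6.56). The preparations themselves differed by -2.11 points (-2.41 to -1.80). Reads were spread differently over the strand. Sites with at most 2 guanines among the surrounding 51 bases took 33.8% of the L1_60 calls and 35.5% of the L2_60 calls but 30.3% of the S1_60 calls, at the 2086 L-strand sites covered in all 5 libraries. In weightings chosen after seeing the data, with each site weighted by its S1_60 coverage, the 3 libraries gave 34.3% (L1_60), 34.0% (L2_60) and 34.2% (S1_60). With the L1_60 coverage as weight they gave 38.4%, 38.3% and 38.5%, and with the L2_60 coverage 40.9%, 40.6% and 41.0%. With any of these sets of weights, over those 2086 sites, the excess of several points in liver was not present. The pooled differences rest on other sets, of 2296 shared sites for L1_60 and 2289 for L2_60. Whether the spread of reads accounts for them was not tested. On the H strand the pooled difference was 0.0489 points for L1_60 (0.0301 to 0.0681), 0.00649 for L2_60 (-0.0116 to 0.0248) and 0.0219 for L1_40 (0.00222 to 0.0414), beside 0.0440 between the liver preparations.

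The pattern along the L strand was shared by native and synthetic DNA. Over the 2086 L-strand sites covered in all 5 libraries, the rates of L1_60 and S1_60 had a Pearson r of 0.993 across sites, those of L2_60 and S1_60 0.988, and those of both liver preparations 0.989. These sites share reads with their neighbours and share base composition, so the coefficients are descriptions. The SD of the site differences was 4.92 points for L1_60 against S1_60, 6.53 for L2_60 against S1_60 and 6.37 for the preparations against each other. The site-by-site spread against synthetic DNA was thus narrower than that between the liver preparations for L1_60 and slightly wider for L2_60. These SDs include counting error, which was smaller in the pairs with S1_60, the deepest library, so they are not a like-for-like comparison. Rates under 10% were found at 59.1% to 59.6% of the used L-strand sites in liver and 60.7% to 63.9% in synthetic DNA, and rates of 90% or more at 21.7% to 24.3% and 19.1% to 19.5%, each over the library's own sites. On the H strand no site reached 90% in any library, and 99.2% to 99.9% of sites were under 10%.

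**Figure D2:**
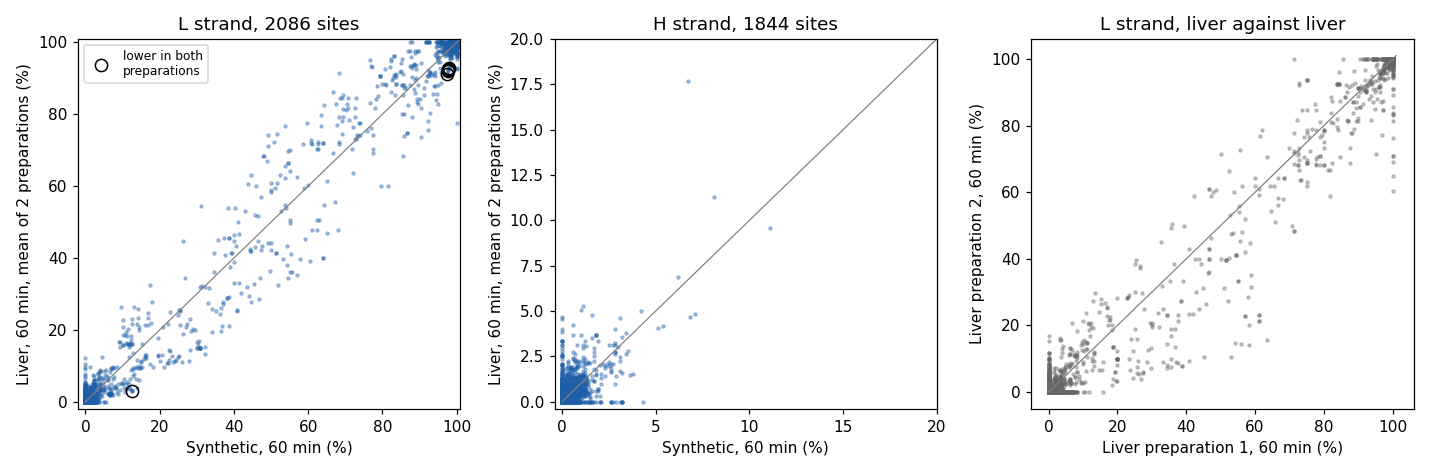
Unconversion rate (%) of each site covered in all 5 libraries: liver (mean of both 60 min preparations) against synthetic at 60 min on the L strand (left) and H strand (middle), and liver preparation 1 against preparation 2 on the L strand (right). Each dot is 1 site, the line marks equal rates, and circles mark the 6 sites called lower in both liver preparations.

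Sites in the CG context, where most methylation of mammalian nuclear DNA lies, had lower rates than other L-strand sites in liver and synthetic DNA alike. At 60 min the L-strand CG mean over 126 sites was 8.01% in L1_60, 7.63% in L2_60 and 7.46% in S1_60. The H-strand CG mean over 266 sites was 0.522% in both liver preparations and 0.395% in S1_60, the only context in which the preparations differed by less than 0.001 points (exact permutation p = 0.333, the smallest possible). At 40 min the H-strand CG means were 0.445% in L1_40 and 0.397% in S1_40. L-strand CHG sites (H stands for A, C or T) had 10.02%, 9.51% and 9.38% at 60 min in L1_60, L2_60 and S1_60, and CHH sites 37.5%, 36.6% and 36.9%. The H-strand excess of liver at 60 min was alike in each context, 0.127 points at CG, 0.127 at CHG and 0.126 at CHH sites. A methylated CG dinucleotide usually carries the mark on both strands. Both cytosines were covered in all 5 libraries at 117 of 277 listed CG dinucleotides, and only these were compared. At none of these 117 did both strands reach 10% in any library. The L-strand cytosine reached 10% at 13 of them in L1_40, 11 in L1_60, 12 in L2_60 and 11 in each synthetic library, and the H-strand cytosine at none, its highest rate being 9.1% in L2_60.

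The number of guanines near a cytosine ordered the L-strand rates alike in both DNAs. L-strand cytosines with at most 2 guanines among the surrounding 51 bases of their own strand had a mean of 83.2% in L1_60, 82.3% in L2_60 and 83.1% in S1_60 over 443 sites. With 3 or 4 guanines the means were 50.5%, 47.7% and 48.9% over 483 sites. With 5 or 6 guanines they were 20.04%, 20.02% and 18.9% over 385 sites, the widest gap at 60 min (liver minus synthetic 1.09 points). With 7 to 9 guanines they were 4.14%, 3.85% and 4.02%, and with 10 or more 1.36%, 1.30% and 1.14% over 300 sites. At 60 min the step from one guanine class to the next was in each case larger than the difference between liver and synthetic DNA within either class. At 40 min L1_40 lay above S1_40 in all 5 classes, by 0.198 to 3.37 points.

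**Figure D3:**
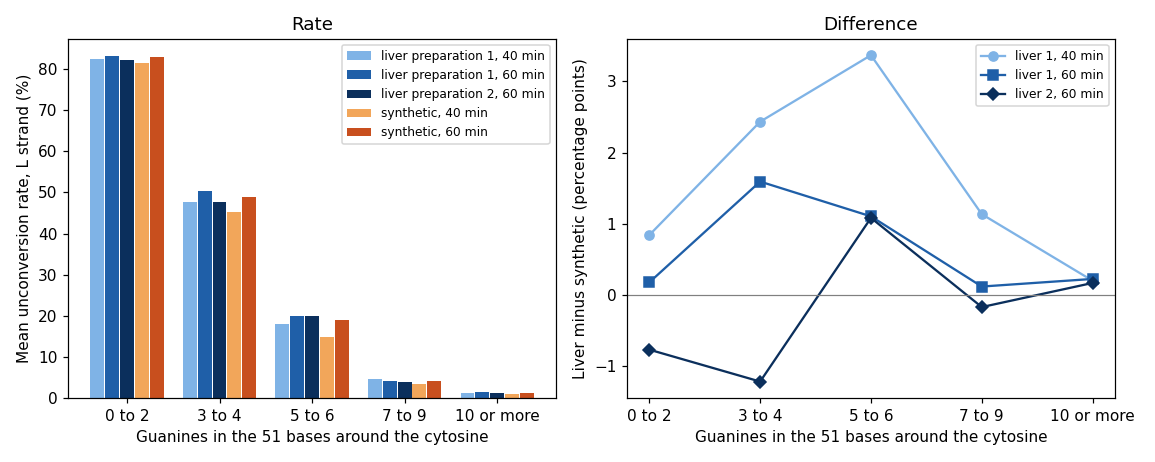
Left, mean L-strand unconversion rate (%) of the 5 libraries in classes of sites by the number of guanines in the surrounding 51 bases (bars, 1 per library). Right, liver minus synthetic in percentage points for the 3 liver libraries. Rates drop from 81.6% to 83.2% in the poorest class to 0.999% to 1.36% in the richest, while the differences stay between -1.22 and 3.37 points.

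Gene by gene, the libraries were compared by whether every liver library lay on the same side of its synthetic library, over genes with at least 3 shared sites on the strand. Of 62 gene and control-region strands, 12 (19.4%) were above in every liver library and 2 (3.23%) below, which left 48 mixed. These counts have no test, and leaving out L2_60 raised them to 21 and 8.

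The L-strand rates of the complex I (NADH dehydrogenase) genes covered a wide range, in liver and synthetic DNA alike. ND6, the only protein gene encoded on the other strand, read as almost fully unconverted on the L strand in every library. Its rates were 99.4% in L1_60, 99.2% in L2_60 and 99.5% in S1_60 over 105 sites. At 40 min it had 99.5% in L1_40 and 99.4% in S1_40. ND2 had 82.0% and 83.0% in liver against 80.7% in S1_60, but 78.6% in L1_40 against 79.3% in S1_40. ND4 had 68.3% and 65.2% against 67.1%, and ND5 57.6% and 54.6% against 55.1%. In these genes the order of liver and synthetic DNA differed between preparations or durations. ND1 was the only complex I gene with every liver library above its synthetic library on the L strand. It had 30.2% in L1_60, 30.4% in L2_60 and 27.9% in S1_60 over 90 sites, and 28.4% in L1_40 against 23.8% in S1_40 over 108 sites, and both 60 min differences exceeded the gap between the preparations.

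Of the cytochrome c oxidase genes of complex IV, COX1 and COX3 were almost wholly converted and COX2 less so. On the L strand COX1 had 2.62%, 2.84% and 2.50% in L1_60, L2_60 and S1_60 over 283 sites, and 1.46% in L1_40 against 2.43% in S1_40. COX2 had 21.0%, 18.9% and 20.2% at 60 min over 31 of its 173 listed sites, and 19.9% against 18.5% at 40 min. COX3 was the only gene below in every liver library on the L strand, at 3.71% and 2.56% against 3.97% at 60 min and 2.88% against 3.09% at 40 min. The L1_60 difference was smaller than the gap between the preparations and the L2_60 difference was larger. CYTB, the mtDNA-encoded subunit of complex III, had 30.8%, 29.6% and 30.6% at 60 min, and 35.4% against 30.2% at 40 min. The ATP synthase genes lay apart from one another. ATP8 had 97.5%, 99.9% and 99.5% at 60 min, whereas ATP6 had 57.5%, 52.2% and 58.8% over 46 sites. ATP6 at 40 min had 57.5% in L1_40 and 46.5% in S1_40, the largest difference of any protein gene and opposite in sign to both 60 min differences. Of the rRNA genes, mt-Rnr1 was above on the L strand in every liver library (5.67% and 6.68% against 5.23% at 60 min) and mt-Rnr2, the 16S rRNA gene, was not (7.40% and 5.94% against 6.45%).

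The control region differed by 0.0444 points on the L strand over the sites shared at 60 min. Over 107 of its 219 listed L-strand sites the means were 12.8% in L1_60, 12.6% in L2_60 and 12.6% in S1_60. S1_60 covered 191 of these sites and the liver libraries 128 and 135. At 40 min, over 140 sites, the means were 17.1% in L1_40 and 12.5% in S1_40, and over the 102 sites covered in all 5 libraries they were 12.4% and 11.3%. At 60 min the sites up to the midpoint of the region had 33.0% in each liver preparation and 31.1% in S1_60, over 29 of 110 listed sites. Those beyond it had 5.28%, 4.94% and 5.77% over 78 sites, with liver below. At 40 min L1_40 had 35.4% and S1_40 24.2% up to the midpoint, over 51 sites. Beyond it they had 6.60% and 5.81% over 89 sites.

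H-strand rates in the protein and rRNA genes and the control region were at most 1.31%, except for mt-Rnr1 in S1_40 (2.69%). All 3 cytochrome c oxidase genes were above in every liver library on the H strand. COX2 had 0.522% and 0.557% in liver against 0.485% at 60 min, and 0.429% against 0.303% at 40 min. ATP6 had 0.730% and 0.558% against 0.295%, and 0.647% against 0.365%, the largest H-strand difference of a protein gene at 60 min (0.348 points). ND5 had 0.445% and 0.486% against 0.329%, and 0.444% against 0.330%. In these 3 genes both 60 min differences were larger than the gap between the preparations, which did not hold for COX1, COX3, ND2, mt-Rnr2 or the control region, the other named regions above in every liver library. No protein or rRNA gene was below on the H strand in every liver library. Of the tRNA genes, 11 had enough shared L-strand sites and 19 enough H-strand sites. TrnE was above on the L strand (3 sites, 100% in all liver libraries), TrnT was above on the H strand and TrnM, the methionine tRNA gene, was below on the H strand (0.338% and 0.315% against 0.523% at 60 min, and 0.215% against 0.662% at 40 min).

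**Figure D4:**
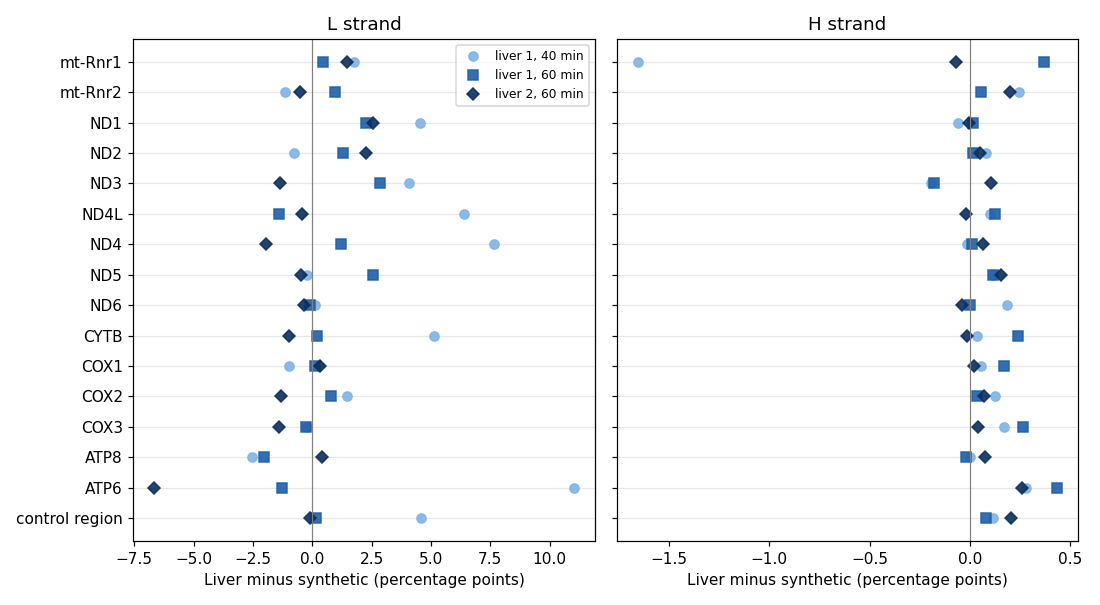
Liver minus synthetic mean unconversion rate (percentage points) for the 2 rRNA genes, 13 protein genes and the control region on the L strand (left) and H strand (right). Each symbol is 1 liver library against the synthetic library of the same duration. The L-strand differences run from -6.65 to 11.02 points, both ends in ATP6, and the H-strand differences from -1.66 points (mt-Rnr1 at 40 min) to 0.435 points (ATP6, L1_60).

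In 500-bp windows, 26 of 66 window strands (39.4%) were above in every liver library and 2 (3.03%) below. On the L strand 11 were above, and the 3 with the largest 60 min difference were nt 10501 to 11000 in ND4 (92.1% and 97.2% in liver against 87.5%, 75.0% against 56.3% at 40 min), nt 3501 to 4000 from ND1 into ND2 across the tRNA genes between them (43.0% and 44.1% against 38.1%, 41.3% against 38.0%) and nt 12501 to 13000 in ND5 (27.3% and 24.4% against 21.2%, 20.3% against 20.02%). Both windows below were on the L strand: nt 10001 to 10500 in ND4L and ND4 (63.8% and 63.4% against 66.3%, 58.7% against 60.2%) and nt 8501 to 9000 in ATP6 and COX3 (3.94% and 3.66% against 4.27%, 6.32% against 6.36%). On the H strand 15 were above and 0 below in every liver library. Among these 15 the largest 60 min differences were 0.457 points at nt 2001 to 2500, 0.394 at nt 7501 to 8000 and 0.351 at nt 8001 to 8500. In the windows at nt 2001 (0.272% and 0.825% against 0.0917%) and nt 8001 (0.798% and 0.553% against 0.324%) the preparations were farther apart from each other than the lower of them was from S1_60. The same held for the L-strand window at nt 10501 to 11000. These counts have no test, and without L2_60 the windows above numbered 33 and those below 7.

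Single cytosines were then compared with Fisher's exact test on the reads of each pair of libraries, with Benjamini-Hochberg adjustment over both strands. No cytosine was called higher in liver in both preparations at 60 min, and 6 were called lower (adjusted p under 0.05 in both), which is 0% and 0.150% of 3989 sites. At an unadjusted p under 0.05 in both preparations, 21 sites were higher and 18 lower in liver. limma on the empirical logit of the 3 libraries called 0 sites in either direction, with 386 sites higher and 42 lower at an unadjusted p under 0.05. That scale adds 0.5 to both read counts, which puts a site without unconverted reads higher in the library with fewer reads, and S1_60 was the deepest library. How far this bears on the 386 sites was not tested. Pair by pair, 14 of 4158 sites (0.337%) were called for L1_60 against S1_60, 13 of 4163 (0.312%) for L2_60 against S1_60 and 4 of 4224 (0.0947%) for L1_40 against S1_40. Between liver preparations at 60 min 0 of 3991 sites (0%) were called, 88 having an unadjusted p under 0.05. This pair had fewer reads, with a median L-strand coverage of 40.0 and 39.0 against 81.0 in S1_60, so its test had less power. At nt 11505 in ND4, for example, 24.6% in L1_60 against 4.2% in L2_60 was not called, whereas 28.2% in S1_60 against 4.2% was. The count of 0 therefore does not show that the preparations agreed site by site. Between durations of 1 DNA, 10 of 4079 sites (0.245%) were called for L1_40 against L1_60 and 0 of 4467 (0%) for S1_40 against S1_60, 149 having an unadjusted p under 0.05. All 10 sites called between the durations of liver preparation 1 were lower after 40 min. Most of them lay in a single COX1 run from nt 5834 to 5848, and nt 4902 and 4906 in ND2 were also close neighbours. Close cytosines are read by largely the same reads, so these are not 10 separate observations.

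All 22 L-strand sites called in any of the 3 comparisons of liver with synthetic DNA were lower in liver, and they formed 5 short runs in which neighbouring cytosines are read by largely the same reads. Each run therefore counts as 1 observation rather than as several. The runs are shown because they hold every L-strand call. Each is the L strand of mm10, 5′ to 3′, with the called cytosines in capitals and 25 bases on either side, from RefSeq: ND2 at chrM:4832-4897, the control region at chrM:16238-16290, ND4L at chrM:9994-10046, ND4 at chrM:11468-11543 and COX1 at chrM:5812-5871.
ND2: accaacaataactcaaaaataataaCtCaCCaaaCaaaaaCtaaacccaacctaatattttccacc
control region: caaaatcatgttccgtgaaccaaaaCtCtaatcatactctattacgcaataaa
ND4L: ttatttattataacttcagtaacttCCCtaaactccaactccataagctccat
ND4: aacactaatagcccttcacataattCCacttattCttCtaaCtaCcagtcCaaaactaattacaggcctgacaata
COX1: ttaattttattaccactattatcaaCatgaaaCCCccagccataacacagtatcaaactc

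The runs are poor in guanine, holding 0 of 66, 4 of 53, 2 of 53, 5 of 76 and 3 of 60 bases, beside 12.4% over the whole L strand. All 22 called L-strand cytosines were CHH sites. The ND2 run, in the coding sequence of a complex I subunit, gave 5 of the 6 sites called in both preparations: nt 4857, 4859, 4861, 4862 and 4866. At nt 4857 the rate was 91.6% in L1_60, 90.7% in L2_60 and 97.3% in S1_60, from 358, 246 and 625 reads (adjusted Fisher's exact p = 0.0395 and 0.0398). The differences at this site were between -9.14 and -2.74 points for L1_60 and between -11.04 and -3.20 points for L2_60 (Newcombe 95% intervals). At nt 4866 the rates were 92.1%, 91.8% and 97.7% (adjusted Fisher's exact p = 0.0135 and 0.0319). All 6 ND2 sites of the run, nt 4872 included, were lower in liver at 40 min too, with a mean of 90.0% in L1_40 and 95.5% in S1_40, and none was called there. Over the run and 60 bases on either side, 41 sites were covered in all 5 libraries, of which 14 were lower and 13 higher in both liver preparations at 60 min. At the same 6 sites the series' other native DNAs at 60 min had means of 84.9% and 97.0% in brain and 85.0% to 92.0% in embryonic stem cells.

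The control-region site at nt 16263, close to the tRNA-Phe end of the region, was the sixth site called in both preparations and the only one with a low rate. It had 2.3% in L1_60 (6 of 259 reads), 3.4% in L2_60 (9 of 264) and 12.4% in S1_60 (33 of 266), with adjusted Fisher's exact p = 0.00615 and 0.0489. The differences were between -14.8 and -5.75 points for L1_60 and between -13.8 and -4.47 points for L2_60. At 40 min the rates were 4.8% (9 of 186) and 10.3% (23 of 224), in the same direction and not called, with an interval of -10.6 to -0.148 points. Its neighbour nt 16265 had 2.3%, 3.9% and 12.6% at 60 min and was called for preparation 1 alone. All 3 liver libraries were thus below both synthetic libraries at these cytosines. Brain and embryonic stem cell DNA at 60 min had means of 1.5% to 5.3% over both sites. After 5 min the means were 36.1% in liver and 38.7% in synthetic DNA, and after 15 min 3.85% and 16.1%.

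Each of the other 3 runs was called for a single liver library. In ND4L 3 sites (nt 10019 to 10021) had means of 16.2% in L1_60, 24.8% in L2_60 and 36.4% in S1_60, with 18.1% in L1_40 and 29.2% in S1_40. All liver libraries were below, and only the L1_60 comparison was called (adjusted Fisher's exact p = 0.00596 to 0.0109). In ND4 7 sites (nt 11493 to 11518) had means of 28.7% in L1_60, 6.37% in L2_60 and 31.6% in S1_60, and 15.3% in L1_40 and 10.1% in S1_40. L2_60 was thus the lowest, and both 40 min libraries were nearer to it than to S1_60. In COX1 4 sites (nt 5837 to 5846) had a mean of 15.3% in L1_40 against 43.7% in S1_40, while L1_60 (53.6%), L2_60 (41.1%) and S1_60 (40.9%) were not called against each other. These 4 sites were also called between L1_40 and L1_60, with the lowest adjusted Fisher's exact p of the run at 6.3e-05.

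**Figure D5:**
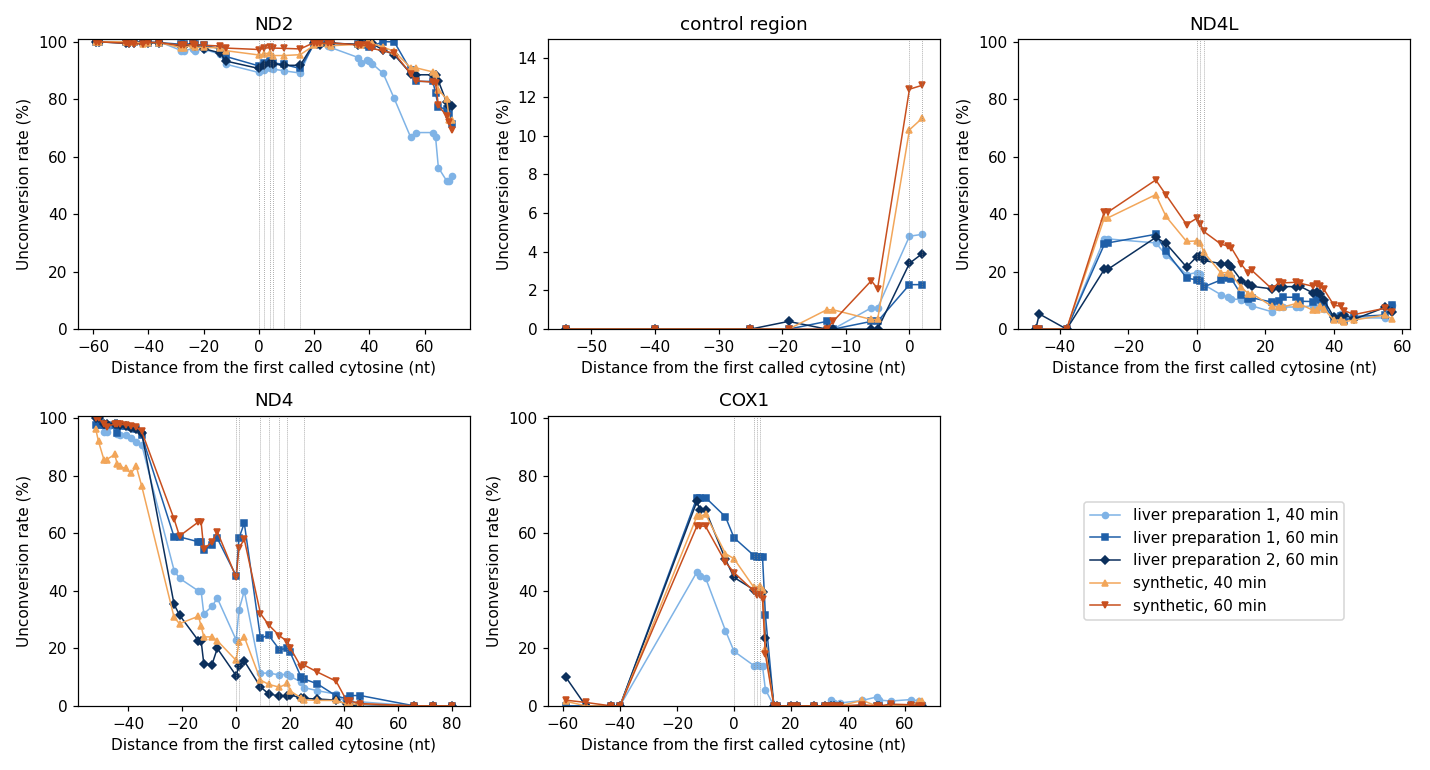
Unconversion rate (%) of L-strand cytosines covered in all 5 libraries against distance (nt) from the first called cytosine of each run, 1 line per library, dotted lines marking called sites. The control-region panel ends at 15% on its axis. In ND2, the control region and ND4L all 3 liver libraries lie below both synthetic libraries at the called sites. In ND4 L2_60 and both 40 min libraries lie below L1_60 and S1_60 there, and in COX1 L1_40 alone is low.

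On the H strand no site was called in both preparations, and 3 were called higher in L1_60 alone. Their H-strand sequences, 5′ to 3′ with the cytosine in capitals, are given because they are the only sites called higher in liver, at chrM:14496-14526, chrM:8622-8652 and chrM:8649-8679 of mm10.
nt 14511, CYTB: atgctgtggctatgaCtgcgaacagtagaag
nt 8637, COX3: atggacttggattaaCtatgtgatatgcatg
nt 8664, COX3: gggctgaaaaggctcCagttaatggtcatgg

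The CYTB site nt 14511 also had the highest mean H-strand rate over the liver libraries, a rank that used these values. It had 30% in L1_60 (15 of 50 reads), 5.4% in L2_60 (4 of 74) and 6.7% in S1_60 (13 of 195), and at 40 min 17.4% in L1_40 (12 of 69) and 23.9% in S1_40 (26 of 109). The synthetic DNA, which holds no methylation, thus reached 23.9% at this cytosine, and the groups overlapped. The COX3 site nt 8637 had 3.3% in L1_60 (12 of 365 reads), 1.0% in L2_60 and 0.3% in S1_60 (5 of 1591), with adjusted Fisher's exact p = 0.00596 for L1_60 and 1 for L2_60. The COX3 site nt 8664 had 2.5% in L1_60, 0.0% in L2_60 and 0.0% in S1_60. Of the next H-strand sites by liver mean, nt 5050 in TrnA had 12.7%, 14.8% and 7.8% in L1_40, L1_60 and L2_60 against 12.7% and 8.1% in S1_40 and S1_60, and nt 1766 in mt-Rnr2 9.2%, 9.7% and 9.5% against 14.9% and 11.1%. The site nt 666 in mt-Rnr1 had 5.4%, 6.6% and 7.1% against 4.8% and 6.2%. The site nt 6192 in COX1 rested on 2 of 10 reads in L1_40 and 0.0% in the other 4 libraries. None of these 4 was called against synthetic DNA.

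The reads bound how much more unconverted a liver cytosine could be than its synthetic counterpart. With the reads of both 60 min liver preparations summed, the upper end of the Newcombe 95% interval of liver minus synthetic was under 1 point at 827 of 1844 H-strand sites (44.8%), under 2 points at 1315 (71.3%) and under 5 points at 1696 (92.0%). For the 266 H-strand CG sites it was under 2 points at 203 (76.3%) and under 5 points at 248 (93.2%). On the L strand it was under 5 points at 1073 of 2145 sites (50.02%) and under 10 points at 1609 (75.0%), so that an excess of a few points was not detectable at many L-strand sites. These L-strand shares are raised by a ceiling. At 477 L-strand sites of high rate S1_60 had a mean of 97.9%, so liver could exceed it by only a few points whatever the reads. Such sites say little about an excess in liver. These intervals cover counting error only. They leave out the spread between preparations, and the largest upper end was 17.7 points on the H strand and 61.6 points on the L strand.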

How the data were processed

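Whole mtDNA bisulfite libraries were read on both strands. Per the labels and the study's methods, the authors trimmed first reads with Trim Galore and aligned them with Bismark to mm10, with versions not given in the sources used here. For each cytosine they deposited the methylation percent and the coverage, a count of reads. No 2 libraries held identical coverage. The study set aside reads left almost wholly unconverted in later analyses. The deposited per-site values still hold such reads: 548 to 583 used L-strand sites per 60 min library had rates of 90% or more. The L-strand rates here therefore include them, and a per-site file does not allow them to be taken out. PCR duplicates were not marked by molecular identifiers, so all intervals cover counting error only. Of the reference cytosines, 160 were not analysed here.

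Unconverted reads were recovered as percent times coverage. The rounded reads gave back the deposited percent within 0.05 points at 100% of covered sites, and at sites with over 1000 reads they are approximate. Positions were matched to the 16299-bp mtDNA of GRCm38 (mm10) in RefSeq, and all listed positions were cytosines on their strand. Sites with coverage of 10 or more in all libraries compared were used. Regions (genes, the control region nt 15423 to 16299, and 500-bp windows) needed 3 shared sites. Means were compared by an exact permutation test (2 liver against 1 synthetic library), and sites by Fisher's exact test (SciPy 1.17.1) per pair with Benjamini-Hochberg adjustment, called at 0.05 in both 60 min pairs. limma 3.58.1 (R 4.3.3) on the empirical logit (offset 0.5), the reads of both preparations summed, coverage minimums of 20 and 30, other site sets, pooled calls and leaving out a preparation were alternatives. The site test was tested on simulated data. Wilson and Newcombe intervals are at 95%, and the detection floor is 3 reads.

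Sites were named by rule: those called in both preparations (up to 5 per strand and direction, all 6 being described, nt 4861 having the smallest difference) and the 5 H-strand sites with the highest liver mean. Windows were the 3 with the largest 60 min difference per strand and direction. The other called sites were named after their values were seen. The comparison and its lists were chosen with earlier results of these data known. Labels give no sequencing batch. The liver replicates are separate preparations, and nothing says how many animals each held, so p-values for sites compare libraries and not animals.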

Additional observations from a re-analysis of the deposited data

Results flagged for a closer look

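Each strand was examined over all sites, over CG, CHG and CHH sites, and in the protein and rRNA genes and the control region, without the tRNA genes. For 8 of these values the 40 min difference (L1_40 minus S1_40) had the opposite sign to both 60 min differences. None of these contrasts between durations was tested, and each 40 min value compares 1 library with 1 library. On the H strand the 40 min difference was -0.0730 points over all sites and -0.127 points over CHH sites, against 0.127 and 0.126 points at 60 min, and -0.0156 points in ND4 against 0.0385. On the L strand ND2 had -0.776 points at 40 min and 1.77 at 60 min, and COX1 had -0.972 and 0.229. ATP6 had 11.02 points at 40 min and -3.96 at 60 min, ND4L 6.40 and -0.934, and ND6 0.130 and -0.220. The H-strand sign over all sites turned to 0.0557 points over the sites covered in all 5 libraries.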

How the results depend on the processing

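Strand means depended on which sites and reads entered. The L-strand difference at 60 min (0.197 points) was 2.88 over each library's own sites and 5.29 with pooled calls. It turned to -0.142 and -0.217 at coverage minimums of 20 and 30 and to -0.104 without sites of 90% or more. It ranged from -0.259 to 0.652 when a liver preparation was left out. At 40 min (1.66 points) it was 0.677 and -0.126 at coverage minimums of 20 and 30, 3.17 over own sites, 0.996 over sites of all 5 libraries and 0.668 pooled. The H-strand difference at 60 min (0.127) was 0.0201 over own sites, 0.0281 pooled, and 0.0785 to 0.175 without a preparation. At 40 min (-0.0730) it was 0.0639 and 0.0519 at minimums of 20 and 30, 0.0557 over sites of all 5 libraries and 0.0219 pooled. The count of sites higher in liver (0) was 1 with liver reads summed, nt 8637 in COX3, and 0 to 3 with 1 preparation. The count of lower sites (6) was 14 summed, 0 by limma, and 11 to 13 with 1 preparation. The 2 windows below became 5 at minimums of 20 and 30, 9 pooled, 1 without sites of 90% or more and 7 without preparation 2. Without preparation 2 the 26 windows above became 33. The 2 regions below became 4 at a minimum of 30, 4 pooled and 8 without preparation 2, and the 12 above became 21. The causes were not tested. No paired analysis was possible because liver and synthetic libraries share only 1 replicate number.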
